A study of Homo sapiens with 4 samples.

Results

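DU-145-only distal H3K27ac peaks are stretches of chromatin with a called peak of the mark in DU-145, a prostate cancer line, and with none in 3 other cancer lines. They were chosen by the peak calls themselves. A DU-145 peak became a member if no base of it overlapped a peak of COLO-205, OVCAR-3 or SKOV-3, and if its summit lay more than 1 kb from every protein-coding transcript start. Chromosome 14, the sex chromosomes and the window chr22:18000001-19000000 were left out. By this rule 34597 of the 75468 DU-145 peaks were members, out of 251138 peaks in the 4 lists. The study set out to link mutations to changes in gene regulation in cancer lines, and it profiled H3K27ac by ChIP-seq in DU-145, in COLO-205 from colon cancer and in OVCAR-3 and SKOV-3 from ovarian cancer. All 4 are established, unmodified and untreated lines. DU-145 was grown in Eagle minimal essential medium, COLO-205 and OVCAR-3 in RPMI and SKOV-3 in McCoy's 5a, each with FBS, so the medium and the line cannot be told apart. There is 1 library per line, so no value below has a replicate error, no difference between lines has a test, and the intervals given cover counting error only.

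H3K27ac is an acetyl mark on histone H3 that is deposited by p300 and CBP at active enhancers and promoters. The acetylated nucleosomes flank the open DNA on which transcription factors sit. Distal acetylated elements differ more between cell types than promoters do, which is why elements marked in a single line are used to read out which transcription factors are active there. DU-145 comes from a brain metastasis of a prostate carcinoma and is known for growing without androgen.

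Because the mark lies on nucleosomes, the sequence beside a summit can be as informative as the sequence under it. The most frequent short sequence beside the summits of the members, relative to DNA farther away, was the AP-1 motif TGACTCA, which is bound by dimers of the FOS and JUN families. The following 8 sites are shown because they are what such a match looks like in the strongest members. They are the nearest matches 150 to 450 bp from the summit in the members with the highest −log10 q that hold one, 1 per nearest gene and outside every annotated exon. Each runs 5′ to 3′ on the plus strand of GRCh37 (hg19), is named by the nearest protein-coding gene and has the 7 bases of the motif, or of its reverse complement TGAGTCA, in capitals. This set was chosen after the motif values were seen.
HPCAL1 site, chr2:10545741-10545787: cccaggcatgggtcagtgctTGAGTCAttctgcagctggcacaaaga
LRRC14B site, chr5:168662-168708: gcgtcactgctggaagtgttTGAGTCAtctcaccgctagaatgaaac
NMT2 site, chr10:15242938-15242984: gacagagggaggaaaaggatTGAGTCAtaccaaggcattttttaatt
STAT3 site, chr17:40477204-40477250: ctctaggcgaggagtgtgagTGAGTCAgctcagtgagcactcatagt
SSH1 site, chr12:109248363-109248409: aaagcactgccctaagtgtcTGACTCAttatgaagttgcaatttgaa
PITPNM3 site, chr17:6426848-6426894: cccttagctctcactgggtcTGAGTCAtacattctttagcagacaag
RAB31 site, chr18:9719744-9719790: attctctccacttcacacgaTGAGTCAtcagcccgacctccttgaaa
PRKCQ site, chr10:6821460-6821506: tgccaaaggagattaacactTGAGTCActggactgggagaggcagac
The sites named for HPCAL1, STAT3, SSH1, PITPNM3 and RAB31 lie in introns of those genes and the LRRC14B site lies in an intron of PLEKHG4B. The NMT2 site is between annotated protein-coding and lncRNA genes, and the PRKCQ site is in introns of the lncRNA genes ENSG00000285743 and ENSG00000285988. They lie between 181 and 432 bp from their summits, 4 on the higher and 4 on the lower coordinate side. The sites of STAT3, SSH1, PITPNM3, RAB31 and PRKCQ fall inside the called peak, and those of HPCAL1, LRRC14B and NMT2 fall just beyond its edge.

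The 300 bases centred on the summits of 5 of the strongest members are shown because they are the DNA directly under the highest peaks. They are 5 of the 8 members that came first by −log10 q, 1 per nearest gene and outside every annotated exon, and are given on the plus strand of GRCh37. TGACTCA is in none of the 5, and it was as near to the summit in only 5.33% of the strongest class of members (−log10 q of at least 10.2), so nothing is read from its absence here. Capitals mark a match to the AP-1, TEAD, RUNX, ETS, SP-KLF, CRE or FOX motif. The TGTGGTT of the RUNX factors is in the ATP10A window.
HPCAL1 summit, chr2:10545299-10545598: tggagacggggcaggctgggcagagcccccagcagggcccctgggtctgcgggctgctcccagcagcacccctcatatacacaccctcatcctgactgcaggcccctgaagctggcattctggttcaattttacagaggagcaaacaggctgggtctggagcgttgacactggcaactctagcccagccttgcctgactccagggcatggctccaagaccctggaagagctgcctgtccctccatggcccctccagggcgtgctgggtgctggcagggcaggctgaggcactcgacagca
COX7C summit, chr5:84943217-84943516: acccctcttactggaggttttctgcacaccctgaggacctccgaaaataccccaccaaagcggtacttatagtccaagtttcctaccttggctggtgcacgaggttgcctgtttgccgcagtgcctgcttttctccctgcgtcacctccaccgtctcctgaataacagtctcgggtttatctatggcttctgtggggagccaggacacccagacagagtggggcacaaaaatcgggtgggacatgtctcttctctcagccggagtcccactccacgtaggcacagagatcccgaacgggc
ANXA2R summit, chr5:43037479-43037778: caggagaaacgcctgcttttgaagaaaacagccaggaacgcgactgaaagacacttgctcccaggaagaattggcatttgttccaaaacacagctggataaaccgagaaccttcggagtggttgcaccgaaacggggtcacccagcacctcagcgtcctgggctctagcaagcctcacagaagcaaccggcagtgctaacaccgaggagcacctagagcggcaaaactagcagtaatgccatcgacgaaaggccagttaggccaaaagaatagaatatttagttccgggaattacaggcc
LRRC14B summit, chr5:168290-168589: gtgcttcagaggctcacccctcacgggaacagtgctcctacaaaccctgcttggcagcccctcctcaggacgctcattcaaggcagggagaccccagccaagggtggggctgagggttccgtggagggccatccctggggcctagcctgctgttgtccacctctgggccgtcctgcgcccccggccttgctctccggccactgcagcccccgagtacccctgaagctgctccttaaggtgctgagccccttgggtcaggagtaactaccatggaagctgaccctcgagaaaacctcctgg
ATP10A summit, chr15:26128205-26128504: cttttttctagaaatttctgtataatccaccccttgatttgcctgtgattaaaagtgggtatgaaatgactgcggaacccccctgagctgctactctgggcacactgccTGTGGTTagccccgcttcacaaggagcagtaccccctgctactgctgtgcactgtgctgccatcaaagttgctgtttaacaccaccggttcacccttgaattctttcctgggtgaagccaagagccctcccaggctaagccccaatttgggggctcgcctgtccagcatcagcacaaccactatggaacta
The HPCAL1 window is in an intron of that gene and the LRRC14B window in an intron of PLEKHG4B. The ANXA2R window is in an intron of the lncRNA gene ANXA2R-OT1. The COX7C and ATP10A windows are in no protein-coding or lncRNA gene.

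TGACTCA was about as frequent at the summits of the members as far from them, and more frequent beside them. Within 150 bp of the summit it was present in 1930 of 34597 members, or 5.58% (exact Clopper-Pearson 95% interval, 5.34 to 5.83), against 5.12% with it in a window of the same length 1350 to 1650 bp to one side, a ratio of 1.09. It was at the summit of 5.77% of the 13283 DU-145 distal peaks that overlapped a peak of another line, with the same ratio of 1.09. The summit share was 4.87% at OVCAR-3-only distal peaks, 3.13% at COLO-205-only distal peaks and 4.08% at all peaks of the 4 lists on the chromosomes used. In the 2 stretches 150 to 450 bp on either side of the summit, 600 bp in all, the share of members was 15.1% (14.8 to 15.5), while 600 bp at 1350 to 1650 bp from the summit held it in 9.85% (9.54 to 10.2). The ratio of these shares was 1.54 in the members, 1.99 in the shared DU-145 distal peaks, 1.18 in OVCAR-3-only and 0.97 in COLO-205-only distal peaks. The windows beside the summit were set after the profile had been seen.

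**Figure D1:**
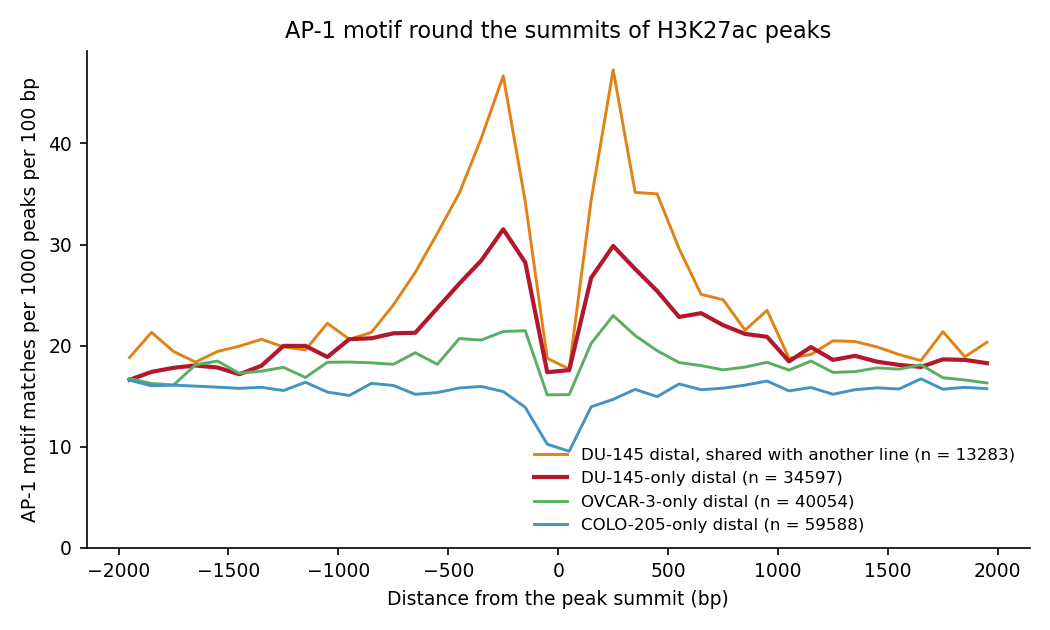
Matches to TGACTCA on either strand per 1000 peaks in 100-bp steps from 2000 bp before to 2000 bp after the summit, for 4 classes of distal peaks. In DU-145-only peaks the density is 17.5 at the summit, 31.5 at 200 to 300 bp before it and 18.4 on average beyond 1000 bp, and COLO-205-only peaks have a dip at the summit, with steps of 13.9 to 16.0 at 100 to 500 bp from it.

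Counted as matches per 1000 peaks per 100 bp, the members had 17.5 within 100 bp of the summit and 18.4 on average beyond 1000 bp, where single steps ranged from 16.6 to 20.0. The highest step, 200 to 300 bp before the summit, reached 31.5. Shared DU-145 distal peaks reached 47.3 and OVCAR-3-only peaks 22.97 at 200 to 300 bp after the summit. COLO-205-only peaks stayed at 15.9 on average beyond 1000 bp and had 9.90 at the summit, and their steps 100 to 500 bp from it lay between 13.9 and 16.0.

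AP-1 also led all other 7-letter sequences beside the summit. Of the 8121 7-mers, counted on both strands, that occurred in the far windows of at least 100 members, TGACTCA had the highest ratio of the near to the far share. The 7-mer at rank 2 was ATGAGTC, with a ratio of 1.42, and that at rank 3 was GAGTCAC, with 1.37. Ranks 4 and 5 went to sequences unlike AP-1, ATCGGAA with a ratio of 1.33 in 323 members and ACCGGTA with 1.33 in 192. Rank 6 was held by ATGACTC (ratio 1.31) and rank 7 by the sequence GACTCAC (ratio 1.30). Those at ranks 2, 3, 6 and 7 overlap TGACTCA by 6 letters on one of the strands. The median ratio over the 8121 was 0.99. TGACTCA ranked 6 of 7714 in the shared DU-145 distal peaks, 49 of 8116 in OVCAR-3-only and 5230 of 8175 in COLO-205-only distal peaks.

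Stronger members held AP-1 more often. Split at the quartiles of −log10 q, 12.3% (11.7 to 13.0) of the weakest class of members had the motif beside the summit, and the next classes had 13.6%, 14.5% and, in the strongest, 20.4% (19.5 to 21.2). The far windows of the same classes lay between 9.40% and 10.8%. Shared DU-145 distal peaks cut at the same −log10 q values had 15.2%, 15.4%, 17.4% and 26.5% beside the summit, shares above those of the members in each class. The intervals overlapped in the second class (12.8 to 14.4 in the members, 13.9 to 17.0 in the shared peaks), and the strongest class reached a −log10 q of 67.8 in the members and 122.3 in the shared peaks, so peak strength is not alike there. The near to far ratio in the members was 1.28, 1.42, 1.54 and 1.89, from the weakest class to the strongest. In the shared peaks it was 1.36, 1.41, 1.85 and 2.56, so above the members in every class but the second. The excess beside the summit was present in the members in each class of base composition. Members whose 600 bp beside the summit held less than 45% G and C had AP-1 in 13.7% there and 9.66% far away, those with 45 to 55% had 16.6% and 10.1%, and those with more had 15.5% and 9.80%.

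**Figure D2:**
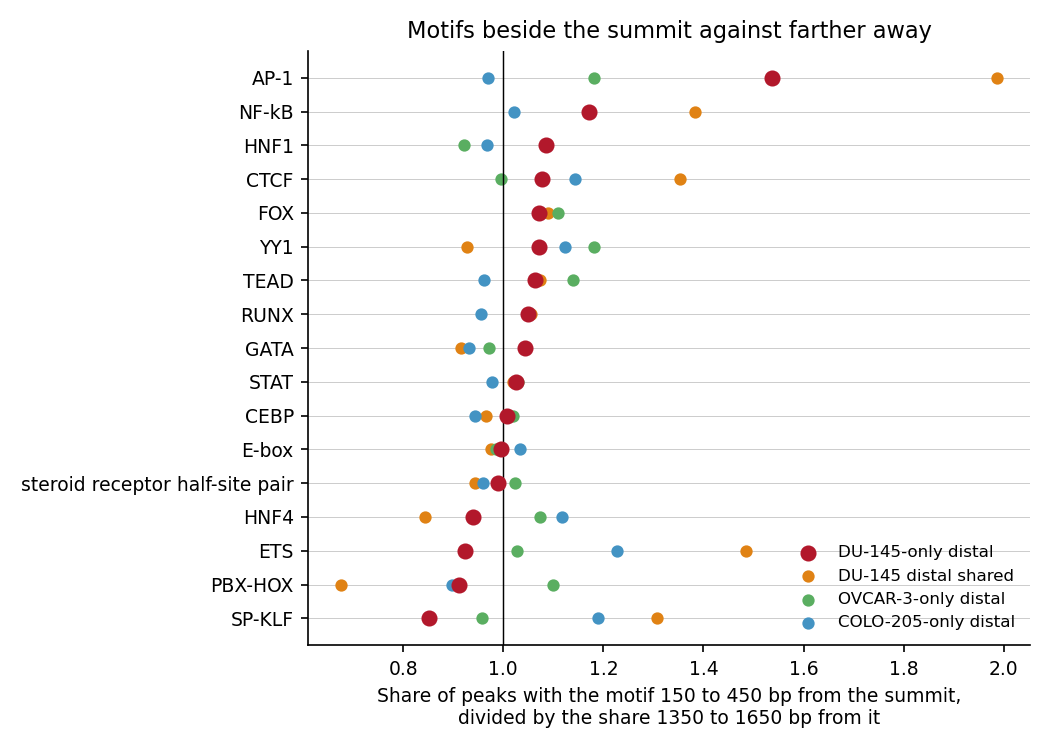
Share of peaks with a motif 150 to 450 bp from the summit divided by the share with it 1350 to 1650 bp away, for 17 motifs and 4 classes of distal peaks. AP-1 is the motif farthest to the right in DU-145-only peaks, at 1.54, and NF-kB is next, at 1.17.

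The other 18 motifs searched, all on both strands and as exact letters, had ratios nearer to 1 in these windows beside the summit, which were set after the AP-1 profile had been seen. The NF-kB motif GGANTTTCC was beside the summit in 2.40% of members, with a near to far ratio of 1.17 against 1.38 in the shared peaks. TEAD (CATTCCA), the motif of the factors through which YAP and TAZ act, was present in 10.9% with a ratio of 1.06. RUNX (TGTGGTT) stood at 9.98% and 1.05, FOX (TGTTTAC) at 7.69% and 1.07 and the palindromic steroid receptor pair ACANNNTGT at 14.3% and 0.99. ETS (CCGGAAG) and SP-KLF (GGGCGG), motifs typical of promoters, had ratios of 0.92 and 0.85 in the members against 1.48 and 1.31 in the shared distal peaks. Directly at the summit the members were poorer in FOX than farther away, with 4.90 against 12.9 matches per 1000 peaks per 100 bp, and richer in SP-KLF, with 49.1 against 37.1. In the 300 bp around the summit, set against a far window of the same length, AP-1 with its ratio of 1.09 was passed by CRE (1.80), the E-box (1.59), SP-KLF (1.49) and also CTCF and ETS, while FOX stood at 0.48 and HNF1 at 0.29. CRE is rare, and its ratio rests on 90 members at the summit and 50 far away, against 1930 and 1772 for AP-1. The summit windows were also richer in G and C, at 52.3% against 45.1% beside them and 45.5% far away. The predicted regulators of DU-145 in the study include FOSL1 and YY1. The PBX-HOX letters TGATTGAT were beside the summit in 1.55% of members (ratio 0.91) and the YY1 letters AAGATGGC in 2.65% (ratio 1.07). Of the remaining motifs, the cyclic AMP element TGACGTCA (CRE) had a ratio of 1.19, the GATA letters AGATAA one of 1.04 and the CEBP letters TTNNGCAA one of 1.01. The STAT letters TTCNNNGAA had a ratio of 1.03, the E-box CAGGTG one of 0.996 and the CTCF core AGGGGGC one of 1.08. The hepatic and intestinal HNF1 letters GTTAATNAT had a ratio of 1.08 and the HNF4 letters CAAAGTCCA one of 0.94. The grainyhead letters AACCGGTT (GRHL) had a ratio of 0.94. CRE and GRHL were in the far windows of fewer than 100 peaks in at least 1 class and are not drawn in the plot of motif ratios.

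The members were narrower and weaker than the DU-145 distal peaks shared with another line, with nearly the same fold enrichment over the local background. Their median width was 319 bp against 408 bp, their median −log10 q 7.84 against 9.42 and their median fold enrichment 4.44 against 4.47. The tag pileup at the summit, which can be solved from the deposited fold and −log10 p, had a median of 24 tags in the members, with quartiles at 20 and 28, and of 29 in the shared peaks. The local background behind it was 4.21 tags against 5.55. A −log10 q of at least 20 was reached by 2.49% of members and 14.3% of shared peaks, and a width of at least 1000 bp by 2.08% and 11.6%. The rule itself favours narrow members, because a wider peak has more bases that can overlap a peak of another line. How much of the differences in width and strength comes from the rule was not tested. Of the 47880 DU-145 distal peaks on the chromosomes used, 72.3% (71.9 to 72.7) were members, against 22.7% of the 16126 DU-145 peaks near a promoter that no other line shared. The same share of distal peaks was 84.4% in COLO-205, 72.2% in OVCAR-3 and 33.3% in the much shorter SKOV-3 list of 14001 peaks. Of the shared peaks, 51.1% overlapped OVCAR-3 alone and 21.3% COLO-205 alone. The number of members depends on the lists: it was 16628 without windows crowded with members, described below, and 2599 when every list was limited to its 14001 strongest peaks.

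The borders of the rule cut through like values. The 414 members with a peak of another line within 100 bp had a median −log10 q of 7.15, and the 493 shared distal peaks whose largest overlap was at most 100 bp had 6.77. The 510 members with a summit up to 200 bp beyond the 1-kb limit had 8.17, and the 535 DU-145-only peaks up to 200 bp inside it, which are not members, had 7.98. The median distance of a member to the nearest peak of another line was 4605 bp, with 18.4% of members within 1 kb and 70.0% within 10 kb.

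Introns of protein-coding genes held 64.0% (63.5 to 64.5) of the member summits and 54.7% (53.8 to 55.5) of the shared ones. A further 5.82% of member summits were in exons, 8.15% in lncRNA genes only and 22.1% in neither kind of gene, against 6.59%, 11.6% and 27.1% of the shared ones. Within 1 kb of a lncRNA transcript start lay 3.003% of members and 8.54% of shared peaks. The median distance to the nearest protein-coding start was 16407 bp, and 8.34% of members were more than 100 kb away.

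The members were unevenly spread over the genome. Chromosome 18 held 2895 of them, or 37.1 per Mb, chromosome 17 29.5 per Mb and chromosome 10 23.4 per Mb, while chromosome 13 held 23, or 0.200 per Mb. On chromosome 18, COLO-205 had 1.61 and OVCAR-3 8.77 line-only distal peaks per Mb, and 88.0% of the DU-145 distal peaks there were members. On chromosome 13, COLO-205 had 99.4 per Mb.

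**Figure D3:**
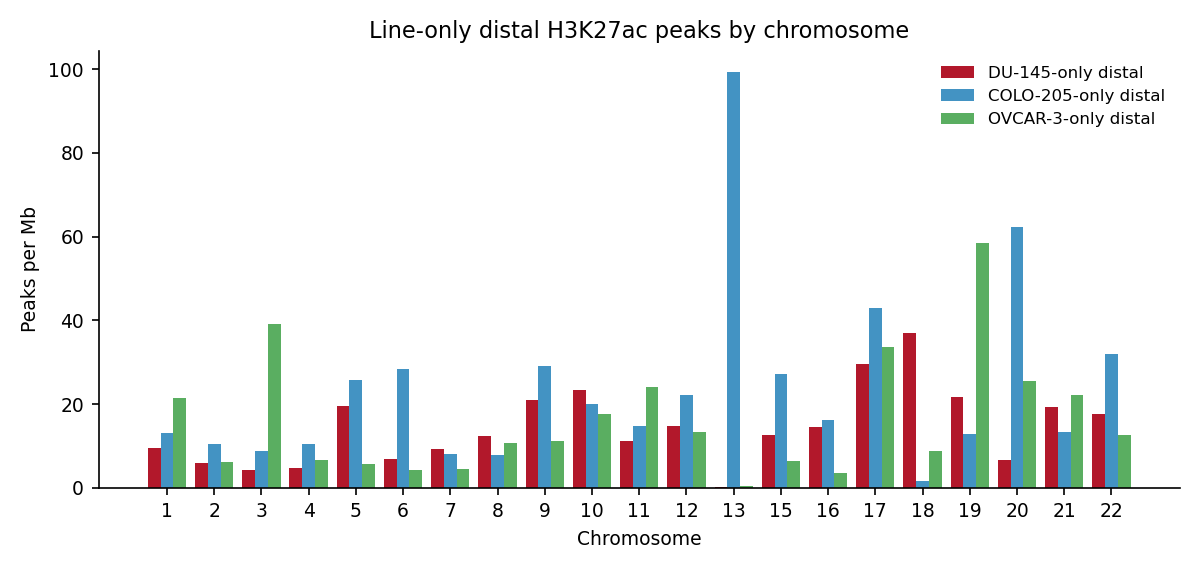
Distal peaks found in a single line, per Mb of each chromosome used, in DU-145 (red), COLO-205 (blue) and OVCAR-3 (green). DU-145 is highest of these 3 lines on chromosomes 7, 8, 10 and 18, and COLO-205 stands at 99.4 per Mb on chromosome 13, where DU-145 has 0.200.

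Of the 2788 windows of 1 Mb, 1102 held no member and 197 held 50 or more. These 197 crowded windows, 7.07% of the windows, contained 17969 members, or 51.9%. The most crowded were neighbours on chromosome 18, with 356 members at 33000001 to 34000000 and 347 at 34000001 to 35000000, where COLO-205 had 0, OVCAR-3 3 and 1, and SKOV-3 0 line-only distal peaks. The next were chr1:150000001-151000000 with 288 members, chr5:32000001-33000000 with 279 and chr22:21000001-22000000 with 251. The median fold enrichment of the members was 4.41 in windows with 1 to 9 members and 4.65 in those with 100 or more, and the median background was 4.16 and 4.01 tags. In both windows of chromosome 18 the median background was 3.31 tags, the lowest value in the members, and the median fold was 5.34 and 5.27. The AP-1 ratio beside the summit was 1.37 in the crowded windows and 1.71 outside them. The DNA copy number of these windows was not measured here.

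Joined wherever the gap was at most 12.5 kb, the members formed 12794 groups. Single members made up 7504 of these groups, and 486 groups of 10 or more held 11343 members, or 32.8%. The largest group, chr5:31856303-32546639, had 301 members around GOLPH3, ZFR and MTMR12, and the same 690337 bp held 39 peaks of COLO-205, 54 of OVCAR-3 and 4 of SKOV-3. The next, chr18:33461286-34116801, had 292 members around FHOD3, MOCOS and RPRD1A, with 7, 16 and 13 peaks of those lines. The group at chr9:33736812-34278352 had 230 members around UBAP2 and UBE2R2, that at chr22:21076981-21462298 had 195 around SERPIND1 and PI4KA, and that at chr18:34792794-35134160 had 190, all nearest to CELF4, which covered 31.5% of its length.

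The strongest single member, at chr2:10544197-10545689 in an intron of HPCAL1, a neuronal calcium sensor, had a −log10 q of 67.8, from a pileup of 120 tags at 8.75 times the background. The highest fold of all members, 16.9, was at chr5:84943114-84943627, in no annotated protein-coding or lncRNA gene and 970391 bp from the nearest start, that of COX7C. HJV, which encodes the iron regulator hemojuvelin, had a member with a −log10 q of 63.9 in an intron, 1275 bp from a start, beside a DU-145 promoter peak (48.0) that no other line had. An intron of CRKL, an adaptor of tyrosine kinase signalling, held a member of 58.4, and the window around it held 251 members. Others of the 10 strongest, taken 1 per nearest gene, were nearest to ANXA2R (59.7), TMEM63B (58.1), LRRC14B (53.0), ZMIZ2 (52.9) and ATP10A (51.4). Their distance to the nearest peak of another line was between 702 bp for LRRC14B and 97118 bp for COX7C.

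Each member was assigned to the protein-coding gene with the nearest transcript start. Of the 18272 genes on the chromosomes used, 7346 (40.2%) were nearest to at least 1 member, 1980 (10.8%) to at least 5 and 811 (4.44%) to at least 10, and the median over all genes was 0. Longer genes collected more members. The median gene length was 21.1 kb for genes with no member, 51.2 kb for those with 5 to 9 and 134 kb for those with 25 or more.

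The gene with most members was FHOD3, a formin that assembles actin filaments in muscle, with 254 members and no line-only distal peak of COLO-205, OVCAR-3 or SKOV-3. Its promoter peak had a −log10 q of 126.8 in DU-145 and 14.7 in SKOV-3, with 6.67 in COLO-205, and OVCAR-3 had no promoter peak. CELF4, an RNA-binding protein of neurons, had 195 members against 2 line-only peaks of COLO-205 and 13 of OVCAR-3, and a promoter peak in DU-145 (17.3) alone. GOLPH3, a Golgi protein that is gained in several cancers, had 131 members and a promoter peak in all 4 lines. The adhesion molecule NECTIN1 and the receptor tyrosine phosphatase PTPRM had 128 members each. Line-only peaks of the other lines were few at both, with 5 of COLO-205 at NECTIN1 and 6 of OVCAR-3 at PTPRM. TRIO, a guanine nucleotide exchange factor, had 107 members, and the signalling adaptor CMIP had 101 along with 23 COLO-205-only peaks.

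**Figure D4:**
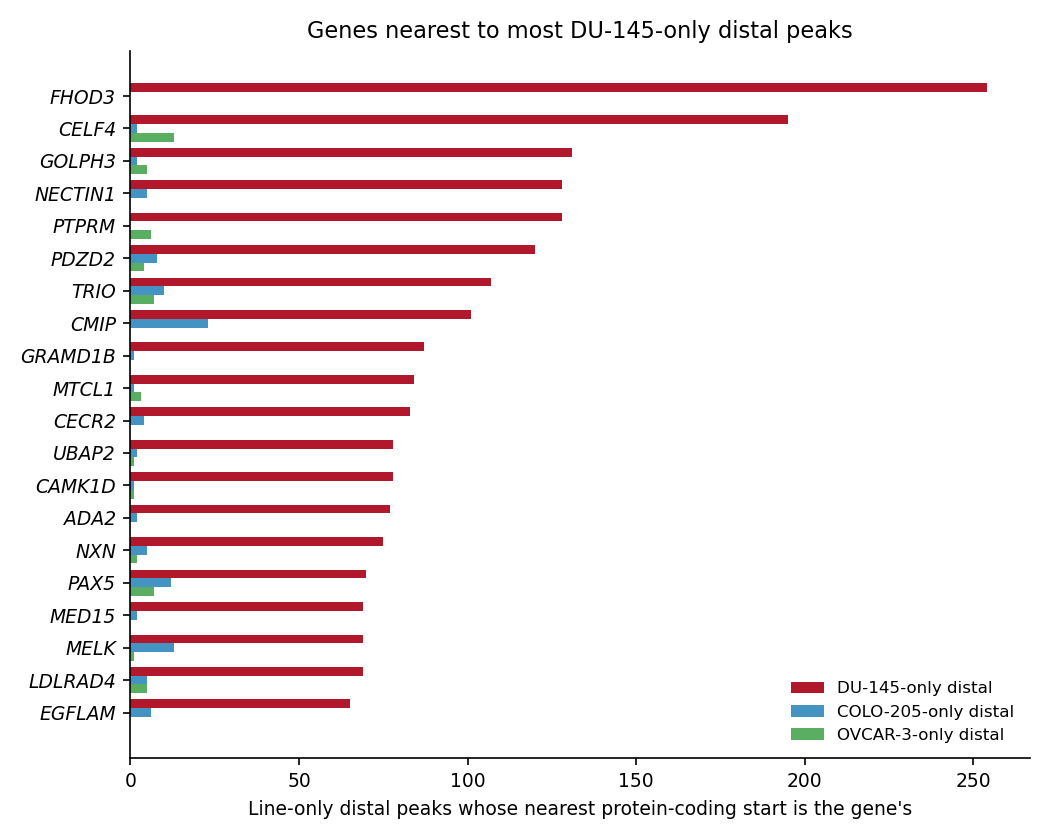
Number of distal peaks found in a single line whose nearest protein-coding start belongs to each of the 20 genes with most DU-145-only distal peaks, for DU-145, COLO-205 and OVCAR-3. DU-145 counts run from 65 at EGFLAM to 254 at FHOD3, and the genes were ordered by these counts.

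The rest of the 20 genes had between 65 and 120 members. They were the PDZ protein gene PDZD2 (120 members), the cholesterol transporter gene GRAMD1B (87), the microtubule gene MTCL1 (84), the chromatin regulator gene CECR2 (83), UBAP2 (78), the kinase gene CAMK1D (78), the adenosine deaminase gene ADA2 (77), the redox gene NXN (75), PAX5 (70), the Mediator subunit gene MED15 (69), the mitotic kinase gene MELK (69), LDLRAD4 (69) and the matrix gene EGFLAM (65). The promoter was marked in DU-145 at all of them except PAX5, the factor of B-cell identity, whose promoter peaks were in COLO-205 (5.71) and SKOV-3 (6.57). All members of these 20 genes lay in crowded windows. Outside the crowded windows, in a list made after the values were seen, WWC1, an upstream regulator of YAP signalling, had 44 members, the filopodial motor MYO10 39, the homeobox gene CUX1 38, and the adhesion protein TNS3 and the receptor IGF1R 36 each. At MYO10 and TNS3, OVCAR-3 had 40 and 33 line-only distal peaks, and DU-145 also had 25 and 14 distal peaks that another line shared.

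Genes of receptor tyrosine kinases and EGFR ligands had a median of 3.5 members, the highest of the longer lists. Of 12 genes, 9 had at least 1 member and 5 at least 5, against 40.2% and 10.8% of all genes. The intestinal list, for a tissue DU-145 does not come from, also had 9 of 12 with at least 1 member but 0 with at least 5, so a count of genes with any member is not particular to the receptors. EGFR, the receptor of epidermal growth factor, had 44 members, 5 COLO-205-only and 2 OVCAR-3-only peaks, and IGF1R, the receptor of insulin-like growth factor 1, had 36, 14 and 0. FGFR1 had 10 members and FGFR2 7, with 13 and 48 peaks in OVCAR-3 alone. The ligand gene HBEGF had 5, TGFA 4 and EREG 2, and ERBB2, EPHA2 and AREG had 0. All 44 members of EGFR and all 10 of FGFR1 were in crowded windows, and no member of IGF1R was.

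TGF-beta pathway genes had members at 8 of 12, or 66.7% against 40.2% of all genes (median 1.5 against 0). OVCAR-3-only distal peaks were at 9 of these genes and COLO-205-only ones at 7. SMAD3, a signal-transducing SMAD, had 63 members, all in crowded windows, against 9 COLO-205-only and 6 OVCAR-3-only peaks. SMAD2 had 2 members and SMAD4 had 0. SMAD6, an inhibitory SMAD, had 8, of which 6 were in crowded windows, and the activin subunit gene INHBA 5. SMAD7, the other inhibitory SMAD, had 0 members and 168 OVCAR-3-only peaks.

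Among the AP-1 genes, 5 of the 8 measured had a member, 62.5% against 40.2% of all genes (median 1). FOSL2 had 12, against 6 COLO-205-only and 4 OVCAR-3-only peaks. FOSL1, which encodes the FRA1 subunit, had 5 and no line-only distal peak of another line. JUND and ATF3 had 1 each and BATF3 had 2. FOSB, JUN and JUNB had 0, and each had a DU-145 promoter peak, with a −log10 q of 21.1, 18.3 and 17.2. FOSB had no promoter peak in the other lines, whereas JUN and JUNB had one in each, with 105.9 at JUN in OVCAR-3. FOS and BATF are on chromosome 14 and were not counted, nor were FOXA1, AJUBA and NFKBIA on the same chromosome for the lists below. The regulators that the study predicted for DU-145 were chosen on data of this line, so their counts are not independent evidence. SETDB1, a histone methyltransferase, had 15 members and FOSL1 5. Both had a DU-145 promoter peak. The members of SETDB1 and FOSL1 were in crowded windows. YY1 is on chromosome 14 and was not counted.

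YAP and TEAD pathway genes had members at 7 of 13, 53.8% against 40.2% of all genes (median 1), led by the coactivator YAP1 with 9, its paralog WWTR1 with 8 and the receptor AXL with 5, all of them in crowded windows for AXL and none for the other two. OVCAR-3-only distal peaks were at 9 of the 13 genes and COLO-205-only ones at 4. OVCAR-3-only peaks numbered 30 at WWTR1, 22 at TEAD1 and 41 at AMOTL2, where DU-145-only peaks numbered 8, 2 and 0. The AXL promoter peak had a −log10 q of 67.3 in DU-145, 28.8 in SKOV-3, 6.74 in COLO-205 and 6.61 in OVCAR-3.

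Basal epithelial genes had members at 7 of 14, or 50% against 40.2% of all genes (median 0.5). COLO-205-only distal peaks were at 8 of these genes and OVCAR-3-only ones at 6. The laminin chain gene LAMA3 had 59 members, all in crowded windows, with no line-only peak of another line, and the plakin DST had 24. LAMB3 had 6. COL17A1, a hemidesmosome collagen, had 5, also all in crowded windows. The basal keratins KRT5, KRT14, KRT15 and KRT6A had 0, and KRT17 had 2. Mesenchymal genes had members at 10 of 16, 62.5% against the same 40.2% (median 1), with 8 at CDH2, which encodes N-cadherin and had no promoter peak in any line, 7 at TGFBI, 4 at TWIST2 and 3 at TNC. COLO-205-only distal peaks were likewise at 10 of these genes and OVCAR-3-only ones at 6. They numbered 42 and 67, against 30 members. ZEB1, ZEB2, TWIST1, FN1, CAV1 and LOX had 0 members. NF-kB inflammatory genes had members at 5 of 12, 41.7% and so near the 40.2% of all genes (median 0), with 8 at the adhesion receptor ICAM1, all in crowded windows, 4 at IL6 and 4 at CSF2. The chemokine genes CXCL8, CXCL1, CXCL2 and CXCL3 had 0.

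Prostate luminal genes had members at 6 of 12, or 50% against 40.2% of all genes (median 0.5). COLO-205-only distal peaks were at 9 of these genes and OVCAR-3-only ones at 2. They numbered 41 and 21, against 21 members. FKBP5, which responds to steroid receptors, had 10 members, TMPRSS2 4, SPDEF 3 and HOXB13 2. COLO-205-only peaks numbered 0 at FKBP5, 16 at TMPRSS2, 2 at SPDEF and 10 at HOXB13. OVCAR-3-only peaks numbered 10 at TMPRSS2 and 0 at the other genes of these. All members of FKBP5 and SPDEF and 3 of the 4 of TMPRSS2 were in crowded windows, as were 17 of the 21 members of the whole list. The prostate-specific antigen gene KLK3, KLK2, KLK4, FOLH1, SLC45A3 and TRPM8 had 0. The marker check went the same way. Of the luminal markers, DU-145 had a promoter peak at SLC45A3 (−log10 q 12.3) and TMPRSS2 (6.10), and none at KLK2, KLK3, FOLH1 and HOXB13. The SLC45A3 promoter peak was stronger in COLO-205 (18.5) and OVCAR-3 (22.7), as was that of TMPRSS2 (38.9 and 10.8). All 5 epithelial markers were marked, as were VIM (43.7) and ZEB1 (27.6) of 4 mesenchymal ones. None of the 5 intestinal markers was marked, and of the Müllerian markers PAX8 (22.3) and MUC16 (16.7) were. So the line had epithelial markers and a few of the prostate ones, with the kallikrein genes KLK2 and KLK3 unmarked at their promoters. The marks at SLC45A3 and TMPRSS2 were not particular to DU-145. The intestinal list had members at 9 of 12 genes, or 75% (median 1), with at most 4 at any gene, and the Müllerian list at 4 of 12, or 33.3% (median 0), against 40.2% of all genes, with 11 at EMX2, 4 at SOX17 and 2 at MUC16.

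Genes with many members usually carried H3K27ac at their own promoter, and more often in DU-145 than in the other lines. Of the 1980 genes with at least 5 members, 89.7% (88.3 to 91.0) had a DU-145 promoter peak, that is, a summit within 1 kb of a transcript start, against 59.6% of all genes. In OVCAR-3 the shares were 79.6% and 59.5%, in COLO-205 70.3% and 49.4% and in SKOV-3 54.1% and 31.2%. Among genes with no member, 47.7% had a promoter peak in DU-145 and 52.6% in OVCAR-3. Among genes with 25 or more members, DU-145 had 98.3% (95.1 to 99.6) and OVCAR-3 84.0% (77.7 to 89.1). Without the crowded windows, 88.4% of the 999 genes that still had 5 or more members had a DU-145 promoter peak.

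**Figure D5:**
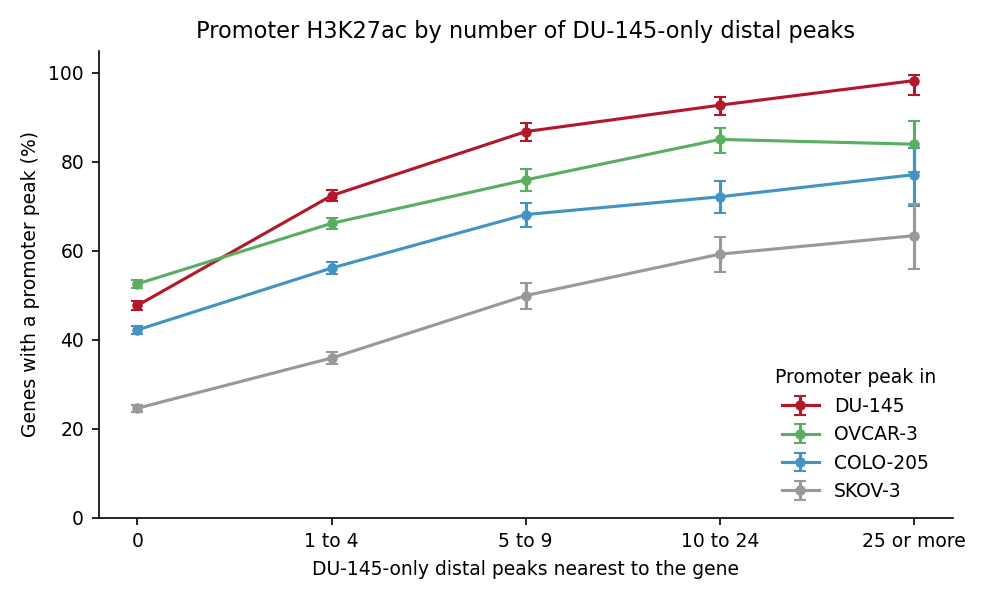
Share of protein-coding genes with a promoter peak in each line, by the number of DU-145-only distal peaks nearest to the gene, with exact 95% intervals that cover counting error only. The DU-145 share goes from 47.7% to 98.3% and the OVCAR-3 share from 52.6% to 84.0%.

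The same count from the side of the other lines had the same form. Genes with at least 5 OVCAR-3-only distal peaks had a promoter peak in OVCAR-3 in 85.5% (83.9 to 87.0) and in DU-145 in 66.4% (64.3 to 68.4). Genes with at least 5 COLO-205-only distal peaks had one in COLO-205 in 76.3% (74.7 to 77.9) and in DU-145 in 61.6% (59.8 to 63.4). Promoters marked in DU-145 and in no other line were a small part. They made up 5.71% (4.73 to 6.82) of genes with at least 5 members and 3.51% (3.17 to 3.87) of genes with none. Counted by member, 87.8% were nearest to a gene with a DU-145 promoter peak, 81.9% to one that was also marked in at least 1 other line and 5.95% to one marked in DU-145 alone. The corresponding shares of shared DU-145 distal peaks were 84.7%, 81.4% and 3.32%. So most DU-145-only distal peaks lay nearest to genes whose promoters were also marked in other lines.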

How the data were processed

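H3K27ac ChIP-seq was done by the authors in 4 cell lines, with 1 library each. Per the labels and the methods, reads were mapped with Bowtie2 2.1.0 to hg19 and narrow peaks called with MACS2 2.1.0.20150603, per library, with q under 0.001. For each peak, the deposited columns are a score, its p and its q on the −log10 scale, and a fold enrichment, the ratio to the local background. The authors' methods merge peaks less than 350 bp apart, whereas the deposited lists hold closer neighbours, so unmerged peaks were used here. No per-sample column was left unused, and the lists give no read totals.

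Overlap was 1 bp or more. Transcript starts came from GENCODE v44 lifted to GRCh37, and sequence from GRCh37. Pileup and background at a summit were solved from fold and −log10 p within 0.001 and were recovered for 100% of peaks. Crowded windows are 1-Mb windows with at least 50 members. The members and the lists were chosen with earlier results of these data known. The genes named are the 20 nearest to most members (ties by summed width), up to 4 with most members per list and the genes of the marker list. The regions named are the 10 members with the highest −log10 q, 1 per gene, and the 5 largest joined groups. Sequences were taken by the same order, and none from chromosome 8. Some genes and sequences of these sets are not reported here. Other genes, such as list members at 0, are named after their values were seen. Motifs were searched as exact letters on both strands. The 7-mer count, overlap and pileup steps were tested on simulated data with known answers. Alternatives were other peak thresholds, merging, widening, 50% overlap, equal list sizes, lists left out, other distances, windows and gene assignments. Leaving out the crowded windows, the COLO-205 list or the OVCAR-3 list, and the windows beside the summit, were added after the data were seen. Python 3.11.15, numpy 2.4.6, pandas 2.3.3, scipy 1.17.1, pysam 0.24.0 and matplotlib 3.10.9 were used.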

Additional observations from a re-analysis of the deposited data

How the results depend on the processing

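No paired analysis was possible because each line has a single library. The number of members was 34597 and stayed within 1.5 times of that under 10 of 13 alternatives (27957 to 43048). It was 11140 at a −log10 q of at least 10, 2599 with 14001 peaks in every list and 16628 without the crowded windows, all settings that use fewer peaks. The genes with at least 1 member, 7346, became 3869 and 1468 under the first 2 of these. The share of members with TGACTCA at the summit, 5.58%, became 6.35% with equal lists and 6.27% outside the crowded windows, and for these the cause was not tested. It was 3.24% within 100 bp, 10.9% within 250 bp and 15.1% at 150 to 450 bp on both sides, windows of other lengths. The share of genes with at least 5 members that had a DU-145 promoter peak, 89.7%, became 91.6% with genes assigned within 100 kb and 94.0% for at least 10 members, for which the cause was not tested, and otherwise lay between 88.4% and 90.8%. Sequencing depth may limit the lists, which give no read totals. A site without a peak in another line may carry the mark below the threshold, and how often was not tested.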
